A study of Mus musculus with 4 samples.

Results

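*Il18*, *Psca*, *Hdhd5*, *Ctse*, *Abca13*, *B3gat1* and *Hps4* are 7 of the 31053 genes counted in single-nucleus RNA-seq of mouse kidney medulla, and they were selected on the difference of their levels between genotypes in the inner medullary collecting duct (IMCD). Because that contrast chose them, their IMCD values are given here as a description with no test. Nuclei came from 4 male mice aged 12 weeks, 2 *Hoxb7Cre*-positive mice homozygous for floxed *Tfap2a* (knockout 1 and knockout 2) and 2 Cre-negative controls that carried the same floxed alleles (control 1 and control 2). *Hoxb7Cre* acts in cells of ureteric origin, among them the collecting duct. Each mouse gave 1 library from a middle kidney slice whose cortex had been trimmed to enrich the medulla, and the question was how loss of the transcription factor AP-2α alters collecting duct cells.

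The libraries held 42138345 UMIs (unique transcript molecules) in control 1, 24998797 in control 2, 44964099 in knockout 1 and 22179410 in knockout 2. After filtering, 27341 nuclei remained, 7737 and 5430 in the controls and 7997 and 6177 in the knockouts, with a median of 2628 UMIs per nucleus. The mice also differed in the median mitochondrial share, which was 1.66% and 0.671% in the controls and 1.05% and 0.417% in the knockouts. Between 7 and 18 cell barcodes were shared by any pair of libraries.

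The IMCD runs through the inner medulla to the papilla tip, where it meets the epithelium of the renal pelvis. Its principal cells carry the vasopressin-regulated water channel *Aqp2*, and its deeper cells carry urea transport and the osmoprotective chaperone *Cryab*. IMCD nuclei numbered 655, with 214 and 222 from the controls and 116 and 103 from the knockouts, so a difference in CPM (a gene's UMIs scaled to all UMIs of the class in that mouse) rests on fewer knockout nuclei. The classes were told apart by their markers. *Slc14a2*, the urea transporter, stood at a mean of 694 CPM in IMCD, 2.17 CPM in the *Aqp3*-high principal cells typical of the outer medulla and 0 in principal cells with the sodium channel profile of the cortical duct (CCD-type). *Cryab* stood at 14356 CPM in IMCD and 1327 in *Aqp3*-high nuclei, whereas the sodium channel subunit *Scnn1b* stood at 5.19 CPM in IMCD and 962 in CCD-type nuclei. The uroplakins *Upk1b* and *Upk3a*, which mark the deep medullary epithelium of the pelvis, had 628 and 1105 CPM in that class and 1.20 and 5.58 in IMCD. IMCD divided into an upper part of 326 nuclei, with *Fxyd4* at 2435 CPM, and a deep part of 329 nuclei, with *Fxyd4* at 447 CPM.

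The targeted gene itself overlapped between the genotypes in IMCD as a whole. *Tfap2a* had 40 and 92 UMIs in IMCD nuclei of the controls and 29 and 39 in the knockouts, or 41.6, 88.9, 55.4 and 87.7 CPM, so neither group lay above the other. Upper IMCD had 72.7 and 117 CPM in the controls and 43.0 and 102 in the knockouts, and deep IMCD 18.2 and 62.3 against 63.6 and 64.8, with log2 fold changes of -0.37 and 0.65. In *Aqp3*-high nuclei it had 111 and 137 CPM in the controls and 81.0 and 139 in the knockouts, and in proximal tubule nuclei, which lie outside the Cre lineage, 1 to 3 UMIs per mouse. Both knockouts were lower in the connecting tubule, at 95.9 and 112 CPM against 70.9 and 71.7. They were also lower as counted in pelvis epithelium, with 13.6% and 10.8% of control nuclei and 0 of 33 and 0 of 31 knockout nuclei with a UMI, which allows shares of up to 9.09% and 9.68%. These limits lie close to control 2, whose 95% interval (5.28% to 18.9%, exact binomial) holds both, so the shares do not firmly separate the knockouts from it. In CPM the controls had 42.9 and 25.1, and the counts of 0 allow up to 21.8 and 18.6, below both. The log2 fold change of -6.03 ± 1.70 rests on counts of 0 and did not pass edgeR's quasi-likelihood test (adjusted p = 0.586, Benjamini-Hochberg). The libraries count transcripts from their 3′ end and the counts do not say which exons were read, so these values do not check the deletion.

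*Il18* encodes a cytokine of the IL-1 family that is released after caspase-1 cleavage. Its IMCD nuclei had 19 and 20 UMIs in the controls against 2 and 0 in the knockouts, or 19.8, 19.3, 3.82 and 0 CPM. Both knockout mice lay below both controls, and no single nucleus made the difference: 15 and 18 control nuclei carried the UMIs and the fullest nucleus held 3. The pooled knockout level was 0.106 of the control level and the fitted log2 fold change was -3.16. The 2 knockout UMIs fix this ratio only to between 0.0124 and 0.408, a 95% interval that covers counting error alone, not the difference between 2 mice a group, and is no test. The share of IMCD nuclei with a UMI was 7.01% and 8.11% in the controls and 1.72% and 0% in the knockouts, where 0 of 103 nuclei allows up to 2.91%. Thinned to 1000 UMIs per nucleus, which left out 2 shallow nuclei of knockout 2, the shares were 1.63%, 1.93%, 0.327% and 0%. In the proximal tubule, at a median of 3194 UMIs per nucleus against 4436 in IMCD, the thinned share was 0.347% and 0.354% in the controls and 0.731% and 0.471% in the knockouts. In the controls the thinned IMCD share was thus above that of the proximal tubule, whereas the knockout shares rest on 2 UMIs and 0 and cannot be placed against it. Free RNA, from barcodes under 100 UMIs, carried *Il18* at 7.04 and 6.33 CPM in the controls and 6.35 and 3.58 in the knockouts, below the IMCD level of both controls and, as counted, above that of both knockouts. Only an estimated 9.11% and 1.55% of knockout IMCD UMIs were free RNA, and with it subtracted the log2 fold change was -3.14. Without knockout 1 the log2 fold change was -7.00 and rests on a count of 0, and without knockout 2 it was -2.31.

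Upper IMCD had 11 and 11 *Il18* UMIs in the controls against 1 and 0 in the knockouts, from 98, 114, 47 and 67 nuclei. Deep IMCD had 8 and 9 against 1 and 0, from 116, 108, 69 and 36 nuclei, and the count of 0 in knockout 2 allows up to 17.7 CPM there, above the controls at 14.6 and 17.0. *Il18* was also low in the knockouts among *Aqp3*-high nuclei, where the controls had 5 and 9 UMIs and the knockouts 0 and 1. That ratio was 0.105 with a counting interval of 0.00248 to 0.688, so its size is poorly fixed. In the proximal tubule the order was opposite, at 3.27 and 3.51 CPM in the controls and 7.46 and 4.98 in the knockouts, so the control level was below that of free RNA and the knockout level not far above it. Tested by the quasi-likelihood method of edgeR, with Benjamini-Hochberg correction, neither class passed, at a log2 fold change of -3.04 ± 1.16 (SE, n = 2 mice a group) and adjusted p = 0.999 for *Aqp3*-high nuclei (0.527 to 0.9997 over the alternatives) and 0.87 ± 0.32 and adjusted p = 1.00 for the proximal tubule (0.563 to 1). Without knockout 1 these were -1.50 and 0.52, and without knockout 2 they were -5.83, which rests on a count of 0, and 1.12. Across classes *Il18* averaged 70.6 ± 35.8 CPM in podocytes (mean ± SD over the 4 mice), from 20 UMIs, and 32.5 ± 8.7 CPM in pelvis epithelium. Podocytes were first by the control means too, but narrowly, at 41.6 CPM against 38.5 in pelvis epithelium and 37.3 in immune cells, which had 5 UMIs in all. The knockouts, at a mean of 99.6 CPM in podocytes, widened that lead. No pair of neighbours in that order was separated by more than the range over mice. Pelvis epithelium had 42.9 and 34.2 CPM in the controls and 21.8 and 31.0 in the knockouts. In intercalated cells of the collecting duct the genotypes overlapped, at 6.45 and 13.4 CPM against 16.6 and 2.53, and CCD-type nuclei had 1 UMI in all.

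*Psca* encodes a small glycolipid-anchored surface protein of the Ly6 family found in urothelium and stomach. In IMCD it had 62 and 34 UMIs in the controls and 7 and 8 in the knockouts, or 64.5, 32.9, 13.4 and 18.0 CPM, with a log2 fold change of -1.63. The groups did not overlap, yet few nuclei carried the control UMIs. The 5 nuclei with most of them in each mouse held 75 of the 96 control UMIs, and 1 nucleus of control 1 held 24. By the number of nuclei with any UMI, 18 and 12 of the controls and 4 and 7 of the knockouts, the shares were 8.41%, 5.41%, 3.45% and 6.80%, and knockout 2 lay between the controls. Thinned to 1000 UMIs the shares were 3.17%, 1.84%, 0.984% and 1.64%, with both knockouts below both controls. Without control 1 the log2 fold change was -1.10.

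The *Psca* UMIs sat in deep IMCD, which had 59 and 30 UMIs in the controls and 6 and 4 in the knockouts, while upper IMCD had 3, 4, 1 and 4. All 9 nuclei with 3 or more *Psca* UMIs were deep IMCD nuclei, and 0 of them were called as doublets. In these 9 nuclei the pelvis epithelium markers summed to 926 CPM, against 378 CPM in the 614 nuclei without *Psca*, and *Aqp2* stood at 2128 against 7430 CPM. The fullest knockout nucleus, with 4 *Psca* UMIs in knockout 1, also had 10 *Upk3a* and 2 *Upk1b* UMIs, and it was the 1 nucleus of the 9 with a UMI of either, so it adds to the 926 CPM. Over all IMCD nuclei, 8 of the 8 pelvis markers were found, *Krt7* was the most abundant, and their sum was 459 and 288 CPM in the controls and 468 and 412 in the knockouts. The part of pelvis-like nuclei in the *Psca* values was not tested.

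*Psca* was a gene of the pelvis and the thin limb. It averaged 3409.8 ± 1749.9 CPM in pelvis epithelium, 865 ± 401 in the thin limb and 51.7 ± 40.8 in deep IMCD, and the ranges over mice of these 3 did not overlap, whereas those of each later pair of neighbours did. Pelvis epithelium had 3659 and 2292 CPM in the controls and 1908 and 5780.5 in the knockouts, so the genotypes overlapped where the gene was abundant. As counted, both knockouts were lower in *Aqp3*-high nuclei (17.8 and 11.9 CPM against 8.68 and 0) and intercalated cells (8.60 and 20.1 against 6.23 and 0). The counts of 0 in knockout 2 allow up to 19.8 and 7.59 CPM. Of 8 classes tested outside IMCD 7 were lower and 1 higher in the knockouts, and 0 passed. Free RNA carried *Psca* at 91.5 and 229 CPM in the controls and 20.6 and 363 in the knockouts. Each of these was above the IMCD level of the same mouse. Free RNA was estimated to make up 6.33% and 3.48% of IMCD UMIs in the controls and 9.11% and 1.55% in the knockouts. Knockout 2 had the highest free RNA level of the 4 mice and a low IMCD level, while knockout 1 was the lowest in both. With free RNA subtracted the log2 fold change in IMCD was -1.72.

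*Hdhd5* encodes a protein of the haloacid dehalogenase family of hydrolases. IMCD nuclei had 26 and 29 UMIs in the controls and 3 in each knockout, or 27.0, 28.0, 5.73 and 6.75 CPM. The controls lay close together and well above both knockouts, with a log2 fold change of -2.13 and a pooled ratio of 0.225. Free RNA carried *Hdhd5* at 16.1, 10.0, 12.7 and 11.4 CPM, below the IMCD level of both controls and, as counted, above that of both knockouts. Only an estimated 9.11% and 1.55% of knockout IMCD UMIs were free RNA, and with it subtracted the log2 fold change was -2.34. The *Hdhd5* UMIs were spread thinly: 22 and 25 control nuclei had any, and the fullest nucleus held 2. Both parts of the IMCD had fewer UMIs in each knockout, with 11 and 12 against 1 and 3 UMIs in the upper part and 15 and 17 against 2 and 0 in the deep part. Elsewhere *Hdhd5* ranged from 32.3 ± 7.3 CPM in the distal convoluted tubule through 22.5 ± 1.5 in the proximal tubule to 7.30 ± 14.6 in immune cells. No neighbours in that order were separated, but classes further apart were, such as *Aqp3*-high nuclei from the proximal tubule. In the proximal tubule, which held 1031 of its 1750 UMIs, the mice had 21.7, 23.7, 20.7 and 23.8 CPM and the log2 fold change was -0.04 ± 0.17. *Aqp3*-high nuclei had 8.90 and 7.94 CPM in the controls and 11.6 and 13.2 in the knockouts, from 2 to 4 UMIs a mouse, with both knockouts higher. In pelvis epithelium both knockouts were higher too, at 15.6 and 20.5 CPM against 29.0 and 31.0, from 4 to 9 UMIs a mouse. Both knockouts were lower, as in IMCD, in CCD-type nuclei (28.3 and 28.3 CPM against 12.9 and 11.3), intercalated cells (28.0 and 35.7 against 8.31 and 27.8), the thin limb (35.7 and 18.4 against 14.5 and 11.5) and the distal convoluted tubule (37.2 and 37.9 against 22.1 and 32.2). The CCD-type pair had too few UMIs for the test, and the 3 others did not pass it. In intercalated cells control 1 and knockout 2 were close.

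*Ctse* encodes cathepsin E, an aspartic protease of the endosomes. IMCD nuclei had 41 and 29 UMIs in the controls and 43 and 121 in the knockouts, or 42.7, 28.0, 82.1 and 272 CPM. Both knockouts lay above both controls, but knockout 2 was far above knockout 1, and the log2 fold change of 2.31 was 1.22 without knockout 2 and 2.94 without knockout 1. The change was carried by many nuclei, since 28 of 116 and 53 of 103 knockout nuclei had a UMI, against 32 of 214 and 27 of 222 control nuclei. The 5 fullest nuclei of each mouse held 54 of the 164 knockout UMIs and 18 of the 70 control UMIs. Thinned shares were 4.30% and 2.71% in the controls and 6.89% and 21.6% in the knockouts, against 0.122% to 0.379% in the proximal tubule.

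Nuclei with 3 or more *Ctse* UMIs were mainly in the upper part, 17 of 19, and 0 of them were called as doublets. Upper IMCD had 75.1 and 25.7 CPM in the controls and 134 and 367 in the knockouts, and deep IMCD 18.2 and 30.2 against 47.7 and 118. *Ctse* is abundant in some immune cells, and of the 7 immune markers 4 were found in IMCD nuclei while *Ptprc*, *Adgre1* and *Dock2* were at 0. The immune markers summed to 17.7 and 23.2 CPM in the controls and 30.6 and 4.50 in the knockouts, and *Cd74* was the most abundant. By nucleus these markers summed to 0 CPM in the 19 with 3 or more *Ctse* UMIs, 27.2 in the 121 with 1 or 2 and 18.8 in the 515 without. The part of immune RNA in the *Ctse* values was not tested. Free RNA carried *Ctse* at 5.53, 5.33 and 5.55 CPM in control 1, control 2 and knockout 1 and at 27.0 CPM in knockout 2, well under the IMCD level in each.

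**Figure D1:**
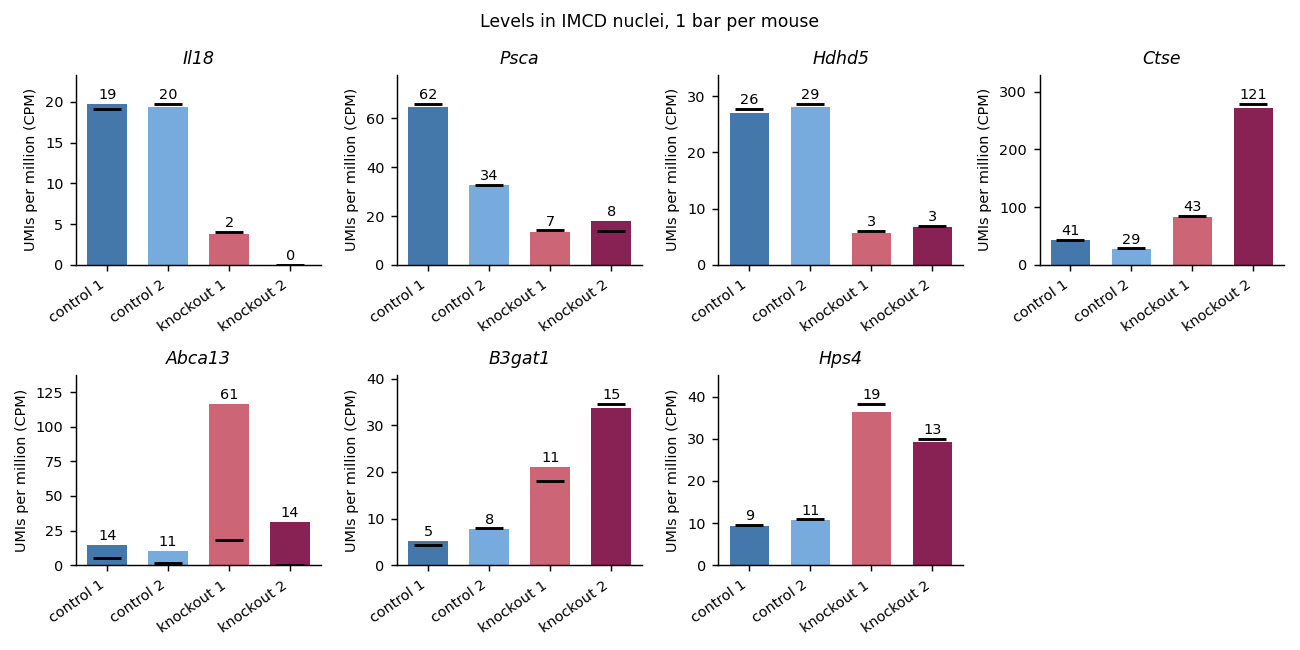
Level of each of the 7 genes in IMCD nuclei, in CPM, with 1 bar per mouse, the number of UMIs above it and a black line for the level after nuclei called as doublets were left out. Both knockout mice lie on one side of both controls in each of the 7 panels, the contrast by which the genes were picked, and the line for *Abca13* drops to 18.1 CPM in knockout 1 and 0 in knockout 2.

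The side of the genotypes seen for *Ctse* in IMCD, and the high place of knockout 2, recurred in other collecting duct cells. The choice of genes did not use these cells, but they came from the same 4 mice and are no independent check. *Aqp3*-high nuclei had 62.3 and 75.4 CPM in the controls and 104 and 429.9 in the knockouts, from 14, 38, 36 and 65 UMIs. CCD-type nuclei had 28.3 and 39.6 against 103 and 282 CPM, and intercalated cells, the acid-base transporting cells of the duct, 15.1 and 15.6 against 41.5 and 192 CPM. In each class both knockouts lay above both controls and knockout 2 was the highest. Knockout 2 was also highest in the connecting tubule, at 10.2 CPM against 1.65 to 2.48 in the other mice. The same held in the proximal tubule, at 3.88 against 1.29 to 2.30 CPM, and in free RNA. It was not the highest in endothelium, immune cells, podocytes or the thick ascending limb. In pelvis epithelium the order in CPM was opposite, with 81.8 and 125 CPM in the controls and 79.8 and 43.4 in the knockouts, and control 1 and knockout 1 were close. By the share of nuclei with a UMI the genotypes overlapped there, at 16.7% and 22.6% in the controls and 24.2% and 9.68% in the knockouts. Thinned shares overlapped too, at 7.39% and 8.75% against 11.2% and 3.52%. The log2 fold changes were 1.74 ± 0.51 in *Aqp3*-high nuclei, 2.37 ± 0.61 in CCD-type nuclei, 2.86 ± 0.69 in intercalated cells and -0.75 ± 0.45 in pelvis epithelium.

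Of the first 3, 0 passed the quasi-likelihood test (edgeR, Benjamini-Hochberg), at adjusted p = 0.828 in *Aqp3*-high nuclei (3.05e-07 to 0.9997 over the alternatives), adjusted p = 1.00 in CCD-type nuclei (0.0122 to 1) and adjusted p = 0.998 in intercalated cells (1.02e-08 to 1). Without knockout 1 all 3 passed, at log2 fold changes of 2.60, 2.90 and 3.60, and without control 1 *Aqp3*-high nuclei did, at 1.67. With no filter on low counts *Aqp3*-high nuclei and intercalated cells passed, and with nuclei under 1% mitochondrial UMIs *Aqp3*-high nuclei did. Without knockout 2 they were 0.53, 1.45 and 1.41, so knockout 2 set much of their size. Across all classes *Ctse* averaged 168 ± 176 CPM in *Aqp3*-high nuclei, 150.5 ± 151 in upper IMCD, 113 ± 117 in CCD-type nuclei, 102 ± 42.0 in immune cells, 82.6 ± 33.6 in pelvis epithelium, 66.1 ± 85.0 in intercalated cells and 53.5 ± 44.5 in deep IMCD. This order rests on the knockouts, since the control means were 109 CPM in immune cells, 104 in pelvis epithelium, 68.9 in *Aqp3*-high nuclei, 50.4 in upper IMCD, 34.0 in CCD-type nuclei, 24.2 in deep IMCD and 15.3 in intercalated cells. The 7 highest classes and parts overlapped in pairs. The interstitial cells below them, at 4.94 ± 6.6 CPM, had 2 UMIs in all. As counted their range lay below that of deep IMCD, but counts of 0 in control 2 and knockout 1 allow up to 20.8 and 31.4 CPM. Both limits lie above the lowest deep IMCD value, 18.2 CPM in control 1.

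**Figure D2:**
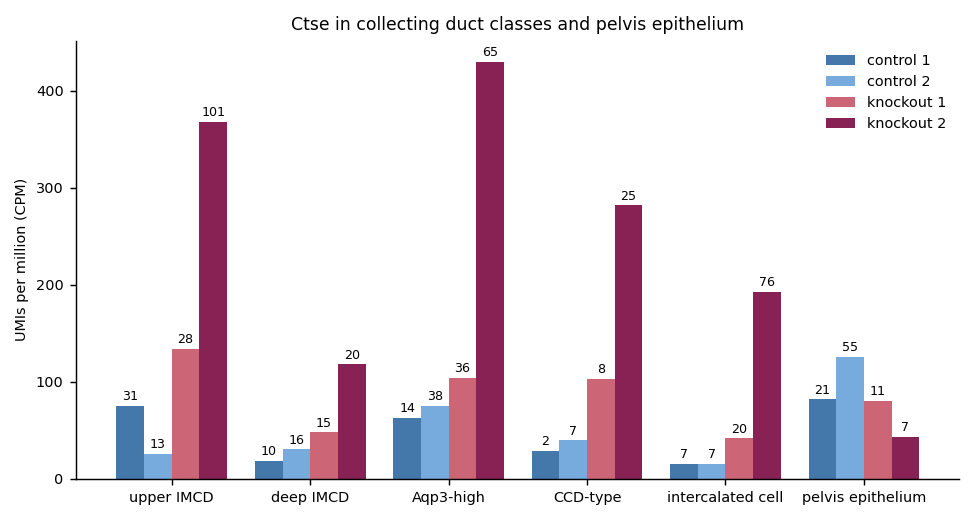
*Ctse* in the parts of the collecting duct and in pelvis epithelium, in CPM, with 1 bar per mouse and its UMIs above it. Both knockouts stand above both controls in the 5 collecting duct groups and below both in pelvis epithelium, where control 1 at 81.8 CPM and knockout 1 at 79.8 CPM are close.

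*B3gat1* encodes a glucuronyltransferase that builds the HNK-1 carbohydrate of neural and other glycoproteins. IMCD nuclei had 5 and 8 UMIs in the controls and 11 and 15 in the knockouts, or 5.20, 7.73, 21.0 and 33.7 CPM. The groups did not overlap, and the log2 fold change was 2.02, but every value rests on at most 15 UMIs. Free RNA carried *B3gat1* at 4.53, 2.33, 2.38 and 6.18 CPM, near the IMCD level in control 1. Nearly all came singly: 11 of the 12 control nuclei and 21 of the 23 knockout nuclei with *B3gat1* had 1 UMI. Over the 4 mice the means were highest in IMCD, 19.0 ± 19.3 CPM in the deep and 16.6 ± 12.5 in the upper part, ahead of immune cells with 1 UMI in all and of the proximal tubule at 7.95 ± 2.0 CPM. The ranges of all neighbours overlapped. The knockouts set that order, since the control means were 6.48 CPM in deep and 6.16 in upper IMCD, 6.70 in the proximal tubule and 9.90 in *Aqp3*-high nuclei. In the proximal tubule, which held 373 of its 509 UMIs, the controls had 6.92 and 6.49 CPM and the knockouts 7.60 and 10.8, with a log2 fold change of 0.43 ± 0.25. *Aqp3*-high nuclei had 4 and 1 UMIs in the controls and 0 and 0 in the knockouts, too few for the test.

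*Abca13* encodes a very large membrane protein of the ABCA family of lipid transporters. IMCD nuclei had 14 and 11 UMIs in the controls and 61 and 14 in the knockouts, or 14.6, 10.6, 116 and 31.5 CPM. A few nuclei held nearly all of it. In knockout 2 all 14 UMIs lay in 1 nucleus, in knockout 1 the 5 fullest nuclei held 54 of 61 UMIs, and in the controls 13 of 14 and 11 of 11. The log2 fold change of 2.56 was 1.36 with nuclei called as doublets left out, 1.31 without knockout 1, 3.20 without knockout 2 and 3.39 with free RNA subtracted. Free RNA carried *Abca13* at 147 and 116 CPM in the controls and 205 and 249 in the knockouts, above the IMCD level of each mouse. It was estimated to make up 6.33% and 3.48% of IMCD UMIs in the controls and 9.11% and 1.55% in the knockouts. The level in free RNA is thus not the level that free RNA would bring to IMCD nuclei.

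Of the 11 IMCD nuclei with 3 or more *Abca13* UMIs, 9 were called as doublets, against 4 of the 633 without a UMI. These 11 nuclei had 7661 CPM of thick ascending limb markers, 4297 of connecting tubule markers and 3412 of distal convoluted tubule markers, where nuclei without *Abca13* had 309, 172 and 232. Their part in the *Abca13* values was not tested. The knockout 2 nucleus had 55 UMIs of *Slc12a3*, the sodium chloride cotransporter of the distal convoluted tubule, beside 33 of *Aqp2*. Without called doublets the mice had 5, 2, 9 and 0 UMIs, or 5.32, 1.98, 18.1 and 0 CPM, and as counted the groups overlapped. The count of 0 in knockout 2 allows up to 6.92 CPM, above both controls, so its place below them is not shown. Over all IMCD nuclei the 6 connecting tubule markers, with *Slc8a1* the most abundant, summed to 141 and 177 CPM in the controls and 674 and 209 in the knockouts. The 6 distal convoluted tubule markers, led by *Wnk1*, summed to 240.3 and 232 against 447 and 418 CPM, and the 8 thick ascending limb markers, led by *Umod*, to 637 and 579.8 against 613 and 326 CPM. All markers of these 3 lists were found in IMCD.

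*Abca13* belonged to the distal tubule. It averaged 7598 ± 1409 CPM in the distal convoluted tubule, 2180.3 ± 361 in the thick ascending limb and 1814.5 ± 599 in the connecting tubule, with 154 ± 92.1 in the next class, endothelium. The distal convoluted tubule was separated from the thick ascending limb and the connecting tubule from endothelium, whereas the thick ascending limb and connecting tubule overlapped. In the distal convoluted tubule the controls had 8543 and 5958 CPM and the knockouts 6912 and 8978, so the genotypes overlapped there. They also overlapped in the connecting tubule, at 1834 and 1185 against 1623 and 2616 CPM. In the thick ascending limb both knockouts were higher, at 2032.5 and 1792.7 against 2641.1 and 2255 CPM. Its log2 fold change of 0.35 ± 0.28 did not pass the test.

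**Figure D3:**
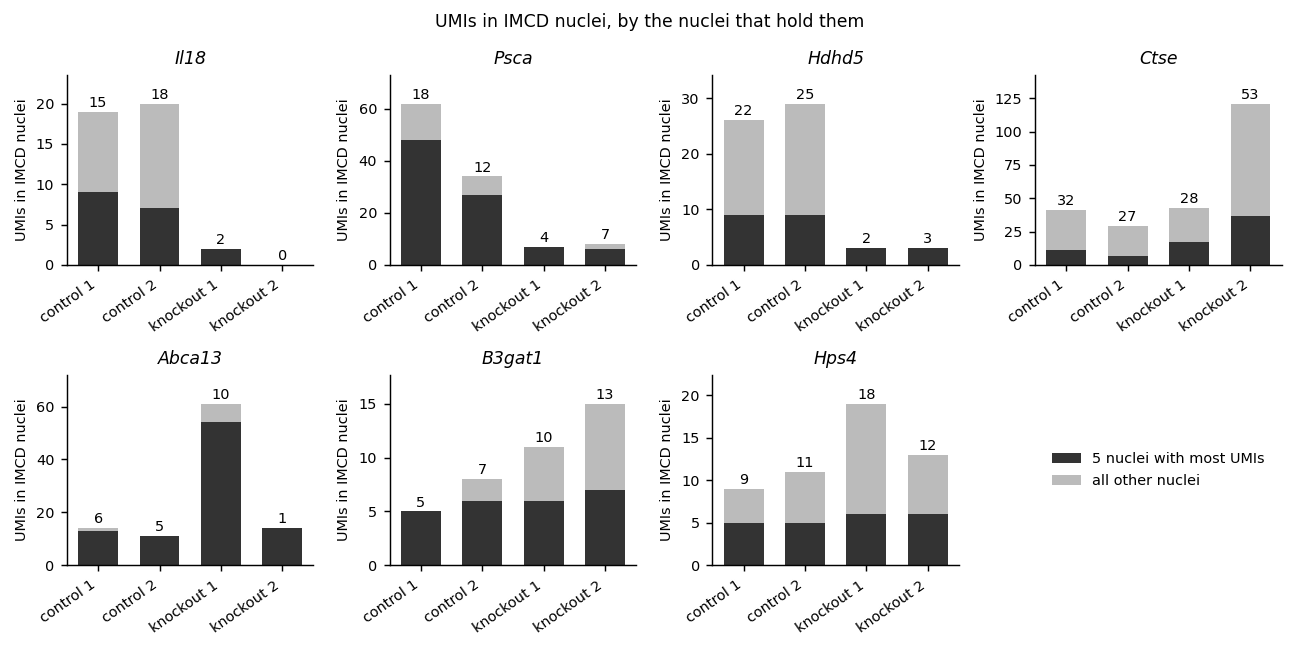
UMIs of each gene in IMCD nuclei of each mouse, split into those in the 5 nuclei with most of them (dark) and those in all other nuclei (light), with the number of nuclei that had a UMI above each bar. *Psca* and *Abca13* sat mostly in the dark part, with 75 of 96 control UMIs and 68 of 75 knockout UMIs, and *Ctse*, with 54 of 164 knockout UMIs, did not.

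*Hps4* encodes a subunit of the exchange factor that activates Rab32 and Rab38 on melanosomes and other lysosome-related organelles. IMCD nuclei had 9 and 11 UMIs in the controls and 19 and 13 in the knockouts, or 9.36, 10.6, 36.3 and 29.2 CPM. Both knockouts were higher, with a log2 fold change of 1.69, from nuclei that mostly had 1 UMI each: 20 of 20 in the controls and 28 of 30 in the knockouts. Free RNA carried *Hps4* at 9.55 and 14.3 CPM in the controls and 15.9 and 18.9 in the knockouts, so the control IMCD level was no higher than the level in free RNA. Only an estimated 6.33% and 3.48% of control IMCD UMIs were free RNA, and with it subtracted the log2 fold change was 1.81. The order of mice was clear in deep IMCD, with 3 and 4 UMIs in the controls and 15 and 6 in the knockouts, while upper IMCD had 6 and 7 against 4 and 7, or 14.5 and 13.9 against 19.1 and 25.5 CPM. Elsewhere *Hps4* ranged from 27.2 ± 6.1 CPM in intercalated cells through 24.3 ± 2.3 in the proximal tubule to 10.7 ± 8.5 in interstitial cells. No neighbours in that order were separated, but the thin limb, at 13.2 to 18.4 CPM, lay below the proximal tubule, at 21.9 to 27.4. The order of mice in IMCD recurred in *Aqp3*-high nuclei, with 8.90 and 11.9 CPM in the controls and 28.9 and 19.8 in the knockouts, from 2 to 10 UMIs a mouse. Their log2 fold change of 1.17 ± 0.67 did not pass the test. That order did not recur in CCD-type nuclei, with 42.5 and 17.0 CPM in the controls and 0 and 33.8 in the knockouts. Intercalated cells overlapped as well, at 25.8 and 26.8 against 20.8 and 35.4 CPM. The control IMCD level of 9.36 and 10.6 CPM was under that of the proximal tubule in the same mice, at 24.0 and 21.9 CPM, and the knockout level of 36.3 and 29.2 was above it, at 24.1 and 27.4.

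**Figure D4:**
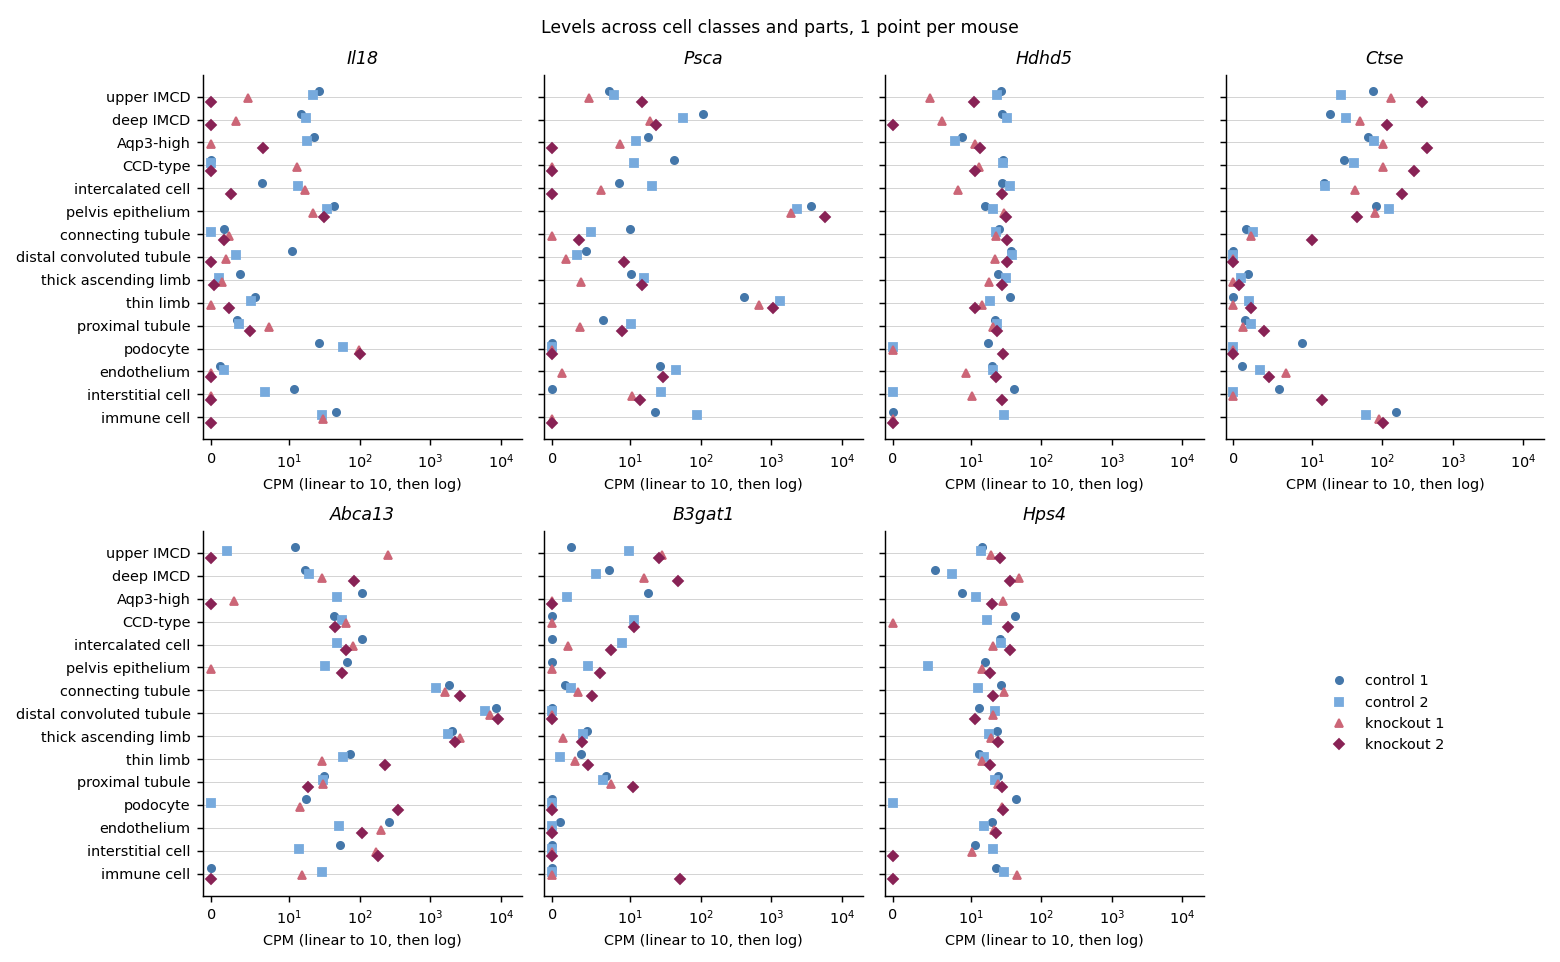
Level of each gene in 15 classes and parts, in CPM on an axis that is linear to 10 and logarithmic above, with 1 point per mouse. *Psca* peaks in pelvis epithelium and the thin limb, *Abca13* in the distal convoluted tubule, thick ascending limb and connecting tubule, and *Ctse* is highest in the collecting duct in the knockouts and in immune cells and pelvis epithelium in the controls.

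Outside IMCD, the 7 genes and 13 classes made 91 pairs, of which 56 had at least 10 UMIs over the 4 mice and were tested. The 35 others, 11 of them for *B3gat1*, were not. In 30 pairs the fitted level was higher in the knockouts and in 26 lower. The quasi-likelihood test of edgeR called 0 of the 56 with an adjusted p under 0.05, and 0.00804% of all 136838 gene and class pairs. DESeq2 called 0 as well, and 0.0227% of all pairs. At an unadjusted p under 0.05 edgeR had 8 pairs and DESeq2 6, where 3.19% of all pairs had one with edgeR and 0.841% with DESeq2. Leaving out 1 mouse raised the count of calls from 0 to 2 without control 1, 1 without control 2, 5 without knockout 1 and 1 without knockout 2. The share of all pairs called was also higher in these fits, at 0.113%, 0.0585%, 0.166% and 0.0797%. Beside pairs named above and below, these were *Abca13* in the thin limb without knockout 1, at 1.77, and *Psca* in endothelium without knockout 2, at -4.46. Pairs from the same 4 mice are not independent, and the smallest p that exchanging 2 against 2 mice can give is 0.33.

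By class, the share of genes that edgeR called was 0.0385% in *Aqp3*-high nuclei, 0.00972% in pelvis epithelium, 0.0158% in endothelium, 0.0482% in immune cells, 0.00561% in the proximal tubule and 0.00678% in the thick ascending limb, and 0% in the 7 other classes. The share with an unadjusted p under 0.05 was 4.66% in *Aqp3*-high nuclei, 2.63% in CCD-type nuclei, 2.21% in intercalated cells, 2.21% in the connecting tubule, 4.56% in pelvis epithelium, 1.88% in the distal convoluted tubule and 4.26% in endothelium. In the other classes it was 4.21% in immune cells, 3.34% in interstitial cells, 2.63% in podocytes, 3.61% in the proximal tubule, 3.01% in the thick ascending limb and 2.46% in the thin limb.

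The 8 pairs were the 3 of *Ctse* and 2 of *Il18* given above and 3 of *Abca13*. *Abca13* in *Aqp3*-high nuclei had the smallest value, adjusted p = 0.0831 from edgeR's quasi-likelihood method and Benjamini-Hochberg (1.37e-07 to 0.679 over the alternatives), from 24 and 24 UMIs in the controls and 1 and 0 in the knockouts. The log2 fold change was -4.92 ± 0.87, and the pooled ratio was 0.0305 with a counting interval of 0.000758 to 0.179, the opposite direction to IMCD. As in IMCD few nuclei carried it, since 5 nuclei held 23 of 24 UMIs in control 1 and 21 of 24 in control 2, and called doublets held 18 and 5 of them. Without control 1 and without control 2 this pair passed, at log2 fold changes of -4.35 and -5.43, and it passed with no filter on low counts. It did not pass without knockout 1 (-7.39, which rests on a count of 0), without knockout 2 (-4.49), without doublets (-3.80), with the 7 genes left out of clustering (-3.59) or without integration (-3.11).

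In interstitial cells *Abca13* had 9 and 2 UMIs in the controls and 16 and 13 in the knockouts, of which 15 and 13 lay in called doublets. Its log2 fold change of 2.28 ± 0.57 was 3.53 without control 1. In podocytes 24 of the 27 UMIs came from knockout 2, with 20 in 1 nucleus, and its log2 fold change of 3.73 ± 1.36 was 6.53 without control 1, which rests on 0 UMIs in the 18 nuclei of control 2. This pair passed without knockout 1, at 4.66.

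In IMCD itself 1 of 12019 genes had an adjusted p under 0.05 with edgeR, or 0.00832%, and 1.89% had an unadjusted p under 0.05. These shares describe the contrast that chose the 7 genes. The gene called, named here after its values were seen, was *Slc12a3*, with 11 and 10 UMIs in the controls and 53 and 57 in the knockouts. The 5 fullest nuclei of each mouse held 5, 5, 48 and 57 of these. With called doublets left out 0 genes passed, and the count was 6 without control 1, 29 without control 2, 30 without knockout 1 and 10 without knockout 2.

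Relatives of each gene, listed by family, did not pass the test in IMCD, and not all had the UMIs to be tested: with the 7 genes themselves, 7 of 18 genes of the IL-1 family list, 13 of 16 of the Ly6 family, 10 of 16 proteases, 7 of 16 ABCA transporters, 7 of 8 glucuronyltransferase and linker genes, 18 of 20 organelle genes and 8 of 11 hydrolases. Beside *Il18*, 6 of the IL-1 family and inflammasome genes were tested, 2 higher and 4 lower in the knockouts, and their log2 fold changes had a median of -0.13, where all genes had -0.01. The inflammasome sensor *Nlrc4* had 691 and 405 CPM in the controls and 563 and 371 in the knockouts, and the interleukin-1 receptor *Il1r1* 22.9 and 52.2 against 19.1 and 45.0. Of 12 other Ly6 family genes 7 were higher and 5 lower, with a median of 0.16, and *Ly6e* had 1106 and 2413 against 1438 and 1883 CPM. The mice overlapped for each of these 3 genes. The second Ly6 gene, *Lypd6b*, had 212 and 336 against 304 and 461 CPM.

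Among 9 other cathepsins and aspartic proteases 7 were higher and 2 lower, with a median of 0.15. The lysosomal protease *Ctsh* had 379.7 and 469.6 CPM in the controls and 554 and 394 in the knockouts, and the aspartic protease *Napsa* 268 and 271 against 353 and 274. Of 6 other ABCA transporters 3 were higher and 3 lower, with a median of 0.08. *Abca3*, a lipid transporter of lamellar bodies, had 242 and 289 against 271 and 335 CPM, and the cholesterol exporter *Abca1* 60.3 and 50.2 against 59.2 and 13.5.

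Of 6 other glucuronyltransferase and linker genes 3 were higher and 3 lower. *B3gat3*, which completes the linker of proteoglycans, had 41.6 and 47.4 CPM in the controls and 74.5 and 42.7 in the knockouts, and *Xylt1*, which starts it, 28.1 and 23.2 against 9.55 and 20.2. Of 17 other genes of lysosome-related organelle complexes 8 were higher and 9 lower, with a median of -0.01, and of 7 other hydrolases of the *Hdhd5* family 3 were higher and 4 lower, with a median of -0.02. *Ap3m1*, an adaptor subunit, had 107 and 97.6 against 99.3 and 137 CPM, *Dtnbp1*, a subunit of another sorting complex, 111 and 73.4 against 124 and 76.5, *Pgp* 527 and 495 against 602 and 475, and *Hdhd2* 43.7 and 34.8 against 47.7 and 27.0. With edgeR 0 of these relatives passed at an adjusted p under 0.05. Of the 12 in the Ly6 family 2 had an unadjusted p under 0.05 and of the 6 other families 0, where 1.89% of all IMCD genes had one. The relatives named here are those with the most UMIs in each list, and *Ly6e* and *Lypd6b*, at log2 fold changes of -0.10 ± 0.43 and 0.46 ± 0.35, are not these 2.

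Genes with the most similar pattern over the 15 classes and parts were taken by Pearson's r of log2(CPM + 10), averaged over the mice, among 13412 genes. The points share the same 4 libraries and differ in depth, so r is a description. *Psca* was nearest to *Lypd2*, another Ly6 family gene, with r = 0.94, followed by *Ctnnd2* at 0.93 and *Sfn* at 0.92. *Abca13* was nearest to *Fads6* at 0.97, *Scara5* at 0.96 and *Gm4593* at 0.95, all highest in the distal convoluted tubule. *Ctse* was nearest to *Pak2* at 0.93, *B4galnt1* at 0.89 and *Fam129a* at 0.88, and *B3gat1* to *Kdm2b* at 0.90, *Inca1* at 0.85 and *Map3k15* at 0.85. For *Hdhd5* these were *B3gnt2*, *Ttc21b* and *Heatr3*, all at 0.93, for *Il18* *Gabrb1* at 0.85, *Man1a2* at 0.84 and *Rab3b* at 0.82, and for *Hps4* *Gapdh* at 0.83, *Zfp317* at 0.81 and *Tmem8* at 0.80.

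The genes lie apart on the mouse genome (GRCm38). *Il18* (ENSMUSG00000039217) is at chr9:50554700-50581841 and *B3gat1* (ENSMUSG00000045994) on the same chromosome at chr9:26733723-26761350. *Psca* (ENSMUSG00000022598) is at chr15:74714839-74717065, *Hdhd5* (ENSMUSG00000058979) at chr6:120509492-120531363, *Ctse* (ENSMUSG00000004552) at chr1:131638314-131675507, *Abca13* (ENSMUSG00000004668) at chr11:9191942-9684871 and *Hps4* (ENSMUSG00000042328) at chr5:112342983-112378424. The span of *Il18* overlaps *Bco2* and *Tex12*, and that of *Hps4* overlaps *Srrd*, *Gm6583* and *Gm20636*, so reads in those stretches may have been counted for a neighbour or left out.

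AP-2 factors bind GC-rich palindromes, so the letters GCCNNNGGC, which read the same on both strands, were searched in the 250 bases before each gene's start in RefSeq's GRCm38.p6 table. They occurred in 13.7% of 32851 promoters. Of the 7 genes 5 had an entry (*Psca* and *Ctse* did not), and 2 of the 5 held the letters, *Hps4* with 2 matches and *Abca13* with 1. For *B3gat1* the stretch searched, chr9:26751312-26751561, lies inside the span given above, before an internal start. Those of *Hps4* and *Hdhd5* (chr6:120531300-120531549) lie partly inside their spans. The stretches of *Hps4* and *Abca13* are printed from 5′ to 3′ with the matches in capitals, at chr5:112342845-112343094 on the + strand and chr11:9191692-9191941 on the + strand. A match is a description of the letters, not of a bound site.
Hps4: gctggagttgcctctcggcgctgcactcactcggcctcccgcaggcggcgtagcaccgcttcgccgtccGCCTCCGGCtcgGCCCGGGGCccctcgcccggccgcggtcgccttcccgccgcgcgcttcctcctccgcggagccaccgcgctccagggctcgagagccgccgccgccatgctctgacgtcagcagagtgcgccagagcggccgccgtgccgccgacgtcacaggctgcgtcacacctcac
Abca13: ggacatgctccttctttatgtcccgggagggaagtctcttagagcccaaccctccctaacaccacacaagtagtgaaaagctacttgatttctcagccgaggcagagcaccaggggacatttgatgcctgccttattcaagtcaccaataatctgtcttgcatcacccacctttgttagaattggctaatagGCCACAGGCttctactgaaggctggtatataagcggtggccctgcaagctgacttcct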

How the data were processed

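Single-nucleus RNA-seq (10x 3′ v3.1) of kidney medulla covered 4 male mice aged 12 weeks, 2 controls and 2 knockouts, with 1 library each. The authors deposited raw UMI counts per gene and barcode from Cell Ranger 3.0.2 against mm10, empty droplets included, for 6794880 barcodes a library. Of the 10000 barcodes with most UMIs in each library, nuclei needed more than 500 and fewer than 4000 genes and less than 5% of UMIs from mitochondrial genes, a filter set with the study's own numbers known. Kept nuclei numbered 7737, 5430, 7997 and 6177, with median depths of 2584, 2645, 2505 and 2797 UMIs, so IMCD values rest on 103 to 222 nuclei a mouse and often on fewer than 30 UMIs. 

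Seurat 5.3.0 in R 4.3.3 integrated the mice (2000 variable genes, 30 dimensions, resolution 0.5) into 26 clusters, named from marker lists. Principal cells and mixed clusters were clustered again with 5 neighbours and resolution 0.2. The limit for calling a cluster mixed (a second class at 0.75 of the best) and the list of classes allowed to adjoin were set after the clusters were seen. Damaged clusters with 1030 nuclei were left out of the classes, as were 68 principal cell nuclei with markers of more than 1 part and 185 nuclei of mixed clusters, 49 of them principal cells mixed with proximal tubule. Also left out were 298 nuclei in a cluster whose top genes marked another class (297 of them called doublets) and 38 with under 3 markers. Clustering used 3 of the 7 genes (*Abca13*, *Ctse* and *Psca*).

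For each class the UMIs of a mouse were added up and fitted with edgeR 4.0.16 (TMM, quasi-likelihood test, genes with at least 10 UMIs, Benjamini-Hochberg over the genes of each class, adjusted p under 0.05). The SE of a log2 fold change is its size divided by the square root of the test's F. The 7 genes and the gene lists were chosen with earlier results of these data known, so IMCD values of the 7 carry no test. Doublets were called with scanpy 1.11.5 at 0.8% per 1000 nuclei, which called 479, 236, 512 and 305 nuclei. Free RNA was taken from barcodes under 100 UMIs, and its estimated share of IMCD UMIs was 1.55% in knockout 2 to 9.11% in knockout 1. Shares of nuclei were also computed after thinning to 1000 UMIs, and a count of 0 was given a floor of 3 counts. Ratios carry exact 95% counting intervals. The tests were checked on simulated data. Alternatives were no TMM, DESeq2 1.42.0, other filters, a replicate term, fewer nuclei, free RNA subtracted, other clusterings, a wider threshold and leaving out each mouse. Named relatives were the 2 genes per list with the most IMCD UMIs, and similar genes the 3 with the highest r among genes with at least 200 UMIs.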

Additional observations from a re-analysis of the deposited data

Results flagged for a closer look

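Among gene and class pairs with at least 10 UMIs, in 23 comparisons of 2 classes both knockouts lay as counted above both controls in one class and below both in the other for the same gene. None of these differences was tested. The same count was not made over all genes, and a class can enter several comparisons, so the 23 stands without a background. Sizes below are differences between the 2 log2 fold changes, and several rest on few UMIs.

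For *Ctse*, knockouts were higher in *Aqp3*-high, CCD-type, intercalated and endothelial nuclei and lower in pelvis epithelium, with differences of 2.49, 3.12, 3.62 and 2.23, and in the thick ascending limb, with differences of 3.47, 4.10, 4.59 and 3.21. The thick ascending limb had 5 and 3 *Ctse* UMIs in the controls and 0 and 2 in the knockouts, and the count of 0 in knockout 1 allows up to 1.39 CPM, above control 2 at 0.995, so its place below that control is not shown in these 4 comparisons. In pelvis epithelium knockout 1 was below the controls in CPM but had the highest share of nuclei with a UMI, 24.2%.

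For *Il18*, knockouts were higher in podocytes and lower in *Aqp3*-high nuclei (4.42) and pelvis epithelium (1.82), and the proximal tubule, where they were also higher, differed from these 2 classes by 3.91 and 1.32. For *Abca13*, knockouts were higher in interstitial cells and lower in *Aqp3*-high nuclei (7.20) and the proximal tubule (2.65), and the thick ascending limb differed from the same 2 classes by 5.27 and 0.72. Called doublets held 28 of the 29 knockout *Abca13* UMIs in interstitial cells, and their part in the difference was not tested.

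For *Hdhd5*, knockouts were higher in *Aqp3*-high nuclei and lower in intercalated cells (1.37), the distal convoluted tubule (1.00) and the thin limb (1.49), and pelvis epithelium differed from the same 3 classes by 1.61, 1.23 and 1.73. For *B3gat1*, knockouts were higher in the proximal tubule and lower in the thick ascending limb (1.06).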

How the results depend on the processing

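Outside IMCD the count of gene and class pairs that passed was 0 with edgeR's quasi-likelihood test (8 at an unadjusted p under 0.05) and 0 with DESeq2 (6). It stayed 0 without TMM, with filterByExpr, without doublets, with free RNA subtracted, without integration and with the 7 genes left out of clustering. It was 3 with no filter, 5 with the replicate number as a term, 1 under 1% mitochondrial UMIs, 1 at an adjusted p under 0.1 and 1 to 5 with a mouse left out. The share of all pairs called was 0.115% with no filter, 0.314% with the replicate number as a term and 0.0369% under 1% mitochondrial UMIs, against 0.00804%. With the replicate number as a term the 5 pairs were *Ctse* in *Aqp3*-high (1.89), CCD-type (2.53) and intercalated nuclei (2.76) and *Abca13* in *Aqp3*-high (-5.24) and interstitial nuclei (2.29). Nothing in the labels ties mice of the same number. Deviations of same-numbered mice from their group means had r = 0.4336 in IMCD and 0.4181 in the proximal tubule, 1 value each since 2 groups of 2 mice give mirror images. In IMCD the count of genes was 1, was 0 without doublets and 6 to 30 with a mouse left out, and was 1 in the 10 other alternatives. The causes were not tested. With a mouse left out, the lone mouse of its group is assumed to vary like the others.

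Of 112 alternative log2 fold changes of the 7 genes in IMCD, 99 moved by less than 1 SE, 13 moved by more and 0 changed sign. With a mouse left out the ranges were -7.00 (from a count of 0) to -2.31 for *Il18*, -2.01 to -1.10 for *Psca*, -2.24 to -2.01 for *Hdhd5*, 1.22 to 2.94 for *Ctse*, 1.31 to 3.20 for *Abca13*, 1.67 to 2.37 for *B3gat1* and 1.52 to 1.84 for *Hps4*. *Psca* was -1.02 under 1% mitochondrial UMIs and -2.11 without integration and with the 7 genes left out of clustering. *Il18* was -4.03 without integration. *Hdhd5* was -2.97 without the fullest nucleus of each mouse. *Abca13* was 1.36 without doublets and 3.39 with free RNA subtracted. Elsewhere, of 104 alternatives that gave a value for the 8 pairs, 88 kept direction and side of the threshold, 16 passed it and 0 changed sign. Sizes moved. With free RNA subtracted *Abca13* was 6.74 in interstitial cells (from 2.28), 6.43 in podocytes (from 3.73) and -7.16 in *Aqp3*-high nuclei (from -4.92). Without integration it was -3.11 in *Aqp3*-high nuclei. The values with free RNA subtracted rest on counts of 0 left by the subtraction, in interstitial and podocyte controls and in *Aqp3*-high knockouts. Combinations under the gene filter gave no value. Among these was *Abca13* in interstitial cells without doublets, with 7 and 1 UMIs in the controls and 1 and 0 in the knockouts. The higher knockout counts were not kept there. Depth limits all values from few UMIs.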
